A study of Sus scrofa with 63 samples.

Results

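The MSLW fetuses of this study were crossbreds of a Meishan (MS) sire and a Large White (LW) sow, and the comparison described here is between 6 of them at day 110 of gestation and 8 at day 90. They were taken by their sample titles, and they make up 14 of the 63 arrays of the series. The other fetuses were purebred LW (9 at each age), purebred MS (6 at day 90 and 7 at day 110) and the reciprocal LWMS cross of an LW sire and an MS sow (9 at each age). All fetuses were males. Sows were inseminated with mixed semen of both breeds, so that a litter held purebred and crossbred fetuses, and the genotype of each fetus was set from DNA markers. One fetus was hybridised per array. RNA came from a whole segment of the middle jejunum, so that epithelium, muscle, nerves, vessels and blood were measured together, and a lower number of cells of a type and less RNA per cell cannot be told apart. The identity of the sow did not enter the fit, and litter mates were counted as independent, so the p-values measure the spread between fetuses without a term for the litter. The study had 9 LW sows and took fetuses by caesarean, so the MSLW fetuses of both ages came from at most 9 litters. Differences between litters can enter the change with age, and the p-values can be too small.

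In the last weeks of gestation the small intestine of the pig prepares for milk. Enterocytes acquire the hydrolases of the brush border, the carriers for sugars, lipids and minerals and the proteins that defend the mucosa. Glucocorticoids and thyroid hormones are known to drive much of this prenatal maturation. Meishan piglets are known for better survival around birth than Large White piglets, and the comparison of both ages in each genotype addressed how the gut matures before birth.

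Levels are log2 intensities from which the 75th percentile of each array was subtracted, so that 0 is the level of a bright probe and each unit is a doubling. A difference is day 110 minus day 90 unless another one is named. A probe was called when its difference was at least 0.5 in size with a Benjamini-Hochberg adjusted p of at most 0.01 in limma. Probes well above background made up 56.3% to 70.7% in the 8 day 90 arrays (median 68.1%) and 56.5% to 80.4% in the 6 day 110 arrays (median 67.7%), and the difference of 2.43 percentage points between the means was smaller than the spread (two-sided exact permutation test, p = 0.54). The arrays lay on 8 slides, and 4 of these held MSLW fetuses of both ages. Across probes, the median correlation of an array with those of its own group was 0.964 to 0.982 at day 90 and 0.951 to 0.973 at day 110. The lowest values were those of fetus 450 at day 90 and of fetus 851 at day 110.

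Between day 90 and day 110, 2193 of 40515 probes tested changed in the MSLW jejunum, which is 5.41%. Of these, 1001 rose (2.47% of the probes tested) and 1192 fell (2.94%). The median rise was 1.22 and the highest 8.28, and 206 rose by at least 2. The median fall was -0.92 and the deepest -4.87, and 60 fell by at least 2. The levels of both ages did not overlap in 1237 of the called probes (56.4%), while 4.34% of all probes tested had no overlap. Calls and overlap came from the same arrays, so the share among called probes is a description. On the 4 slides that held both ages, 1964 of the called probes (89.6%) differed in the called direction on every slide (24.9% of all probes tested had the sign of their fit on every slide), which is a description, since the same arrays entered the fit that called them. Without fetus 476 of day 110 the number called was 1450, with median centring of the arrays 1095 and with array weights 3609. Within the 4 slides that held both ages, with slide as a block and 8 fetuses left, it was 14. By the brightest probe of each gene, 347 of 10704 named genes rose (3.24%) and 404 fell (3.77%), together 751 (7.02%).

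A level on the array is read by a probe of 60 bases. The first 30 bases of 9 probes follow, 5′ to 3′ as the array files give them, because the results turn on them: 3 of the largest rises, 2 of the falls, the 2 probes whose change differed between both reciprocal crosses, and the 2 probes of CYP11A1 that gave unlike answers. Their place in the genome was not analysed here.
REG3A: agccttgtttaggctttttggtttcttccc
CYP17A1: cgccttctttttccaggctgcagcctggca
G6PC: tatggagttcccactatactgcagtgggtt
CA4: cctcaggcttcccaggttgcactttgatga
MAT1A: tccccaccacctagagaaacaaggtttttt
SRPX2: ggcctctgccctactctccaaagtcttcca
BAG6: ataagaagctccaggaatacaatgttggag
CYP11A1, brightest probe: gaaaagagaatttaacaattacccaggcat
CYP11A1, dimmer probe: tcaaggttgaattgcagcacttcagtgatg

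The steepest rises were those of secreted antimicrobial lectins, a macrophage protein, a steroidogenic enzyme and a potassium channel subunit. REG3A, a C-type lectin that kills bacteria in the gut lumen, ran from -4.25 to 1.68 at day 90 (median -2.94) and from 4.72 to 6.59 at day 110 (median 6.27). It rose by 8.28 ± 0.97 (SE), which is 311-fold (adjusted p = 1.2e-08). Its relative REG3G ran from -6.61 to -0.16 (median -3.53) and from 2.57 to 4.57 (median 4.36), a fitted rise of 7.88 ± 0.98 (adjusted p = 4.9e-08), with 5 of 8 day 90 fetuses well above background. Both genes were named under a rule that asked for no overlap of both ages, and their day 90 fetuses spread over more than 5 log2 units. CD5L, an apoptosis inhibitor that macrophages secrete, was at -5.65 to -3.00 (median -4.46) at day 90, with 1 fetus missing, and at 1.81 to 4.62 (median 3.19) at day 110. Its rise was 7.49 ± 0.77, and all 6 of its probes were called, with rises of 4.74 to 7.66.

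CYP17A1, the steroid 17-hydroxylase, was not well above background in any day 90 fetus and was in all 6 day 110 fetuses, at -0.52 to 1.57 (median 0.39). By this probe, the brightest, its level was at least 45.8-fold higher at day 110, where the day 90 side was set to each array's dimmest signal that still passed the background test. KCNE1, a regulatory subunit of potassium channels, was likewise not well above background at day 90 and lay between -0.10 and 1.69 (median 0.36) at day 110, at least 50.05-fold higher. The fitted adjusted p was 1.2e-09 for CYP17A1 and 1e-07 for KCNE1. Both bounds hold for the brightest probe only. The other CYP17A1 probes had smaller fitted rises of 3.70 to 4.08 and the other KCNE1 probe one of 4.20, and all of these were called. INS, which encodes insulin, was at least 14.4-fold higher at day 110 by its brighter probe, while its other probe differed by -0.37 and was not called (adjusted p = 0.32).

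IGF1, the growth factor insulin-like growth factor 1, went from -1.95 to 0.39 at day 90 (median -0.53) to 4.31 to 5.90 in 5 measured fetuses at day 110 (median 5.21). Its rise by the brightest probe was 5.77 ± 0.78 (adjusted p = 3.5e-07). The other 3 IGF1 probes differed by -0.02 to 0.42 and none was called, so the probes of this gene disagree. TMPRSS15, the enteropeptidase that activates trypsinogen, rose from between -3.33 and 0.92 (median -1.89) to between 2.69 and 5.12 (median 3.99). That is 5.58 ± 0.86, or 48.0-fold, and all 3 of its probes were called. DIO1, a deiodinase that activates thyroid hormone, rose by 5.22 ± 0.70, from -6.01 to -2.62 at day 90 (median -3.68) to 0.33 to 2.41 at day 110 (median 1.59). G6PC, the glucose-6-phosphatase that releases free glucose, rose by a fitted 5.19 ± 0.53 (adjusted p = 3.3e-10), from -6.59 to -4.68 (median -5.77) to -1.57 to 0.26 (median -0.11), and all 3 of its probes were called. At day 90 DIO1 was well above background in 6 of 8 fetuses and G6PC in 4 of 8, so the sizes of these rises rest in part on signals near the background. The largest rises were named only where both ages did not overlap, so the gap between ages in these genes follows from the naming rule.

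**Figure D1:**
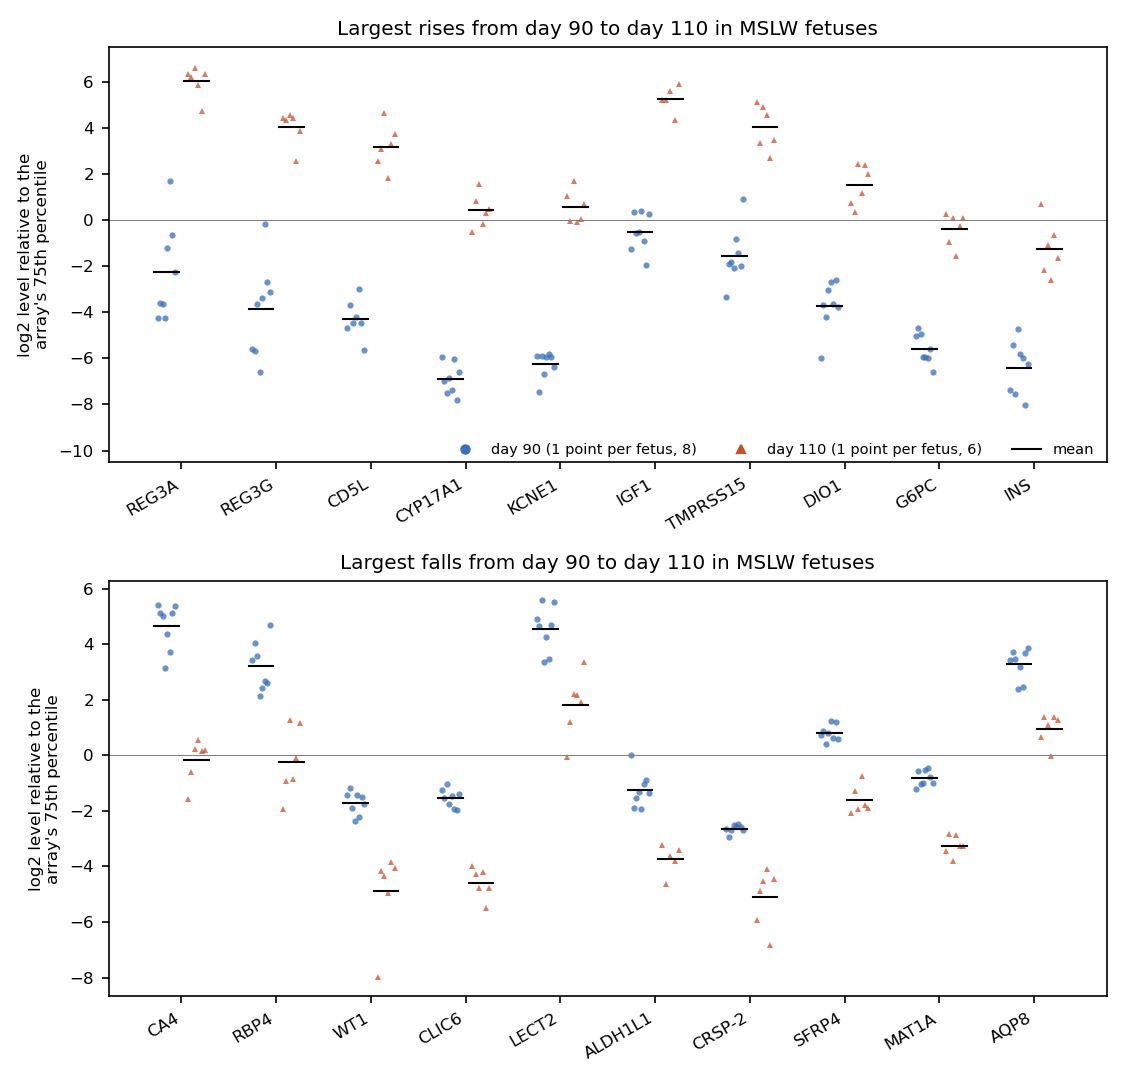
Level of the 10 genes with the largest rises (top) and the 10 with the largest falls (bottom) in MSLW fetuses. The vertical axes give the log2 level relative to the array's 75th percentile, circles are the 8 day 90 fetuses, triangles the 6 day 110 fetuses and black lines the means. The naming rule asked for no overlap of both ages, and REG3A has the widest gap between means, 8.28.

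Falls were shallower, and they were led by enzymes and carriers of ions and retinol. CA4, a carbonic anhydrase anchored to the cell surface, ran from 3.16 to 5.40 at day 90 (median 5.07) and from -1.58 to 0.56 at day 110 (median 0.18). It fell by 4.83 on the log2 scale (SE 0.53), 28.5-fold (adjusted p = 2.4e-09). RBP4, the carrier of retinol in plasma, fell by 3.43 (SE 0.60), from 2.14 to 4.70 (median 3.06) to -1.93 to 1.26 (median -0.48). AQP8, a water channel, fell by 2.31 (SE 0.62, adjusted p = 0.0086), and its levels were 2.40 to 3.85 (median 3.46) and -0.01 to 1.39 (median 1.18). LECT2, a chemotactic protein of plasma, fell by 2.75 (SE 0.75) from a median of 4.68 to one of 2.05. Its ages were barely apart, with 3.37 as the lowest day 90 fetus and 3.36 as the highest day 110 fetus.

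MAT1A, which makes S-adenosylmethionine, had the smallest SE of the 10 falls. It ran from -1.21 to -0.45 at day 90 (median -0.89) and from -3.81 to -2.84 at day 110 (median -3.26), a fall by 2.43 (SE 0.21, adjusted p = 4.2e-12). SFRP4, a secreted Wnt antagonist, fell by 2.44 (SE 0.28), and ALDH1L1, a folate enzyme, fell by 2.49 (SE 0.40, with 5 day 110 fetuses measured). WT1, a transcription factor of mesothelium, fell by 3.17 (SE 0.49), and CLIC6, an intracellular chloride channel protein, by 3.04 (SE 0.51). CRSP-2, a peptide of the calcitonin family, fell by 2.48 (SE 0.36). In these last 3 genes some day 110 arrays were no longer well above background: 4 of 6 still were for WT1, 3 of 6 for CLIC6 and 3 of 6 for CRSP-2. Slide as a block left LECT2 and AQP8 above the threshold, with adjusted p of 0.017 and 0.026.

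The digestive surface of the enterocyte was among the groups with most rises. Of 16 brush-border hydrolases tested, 6 rose and none fell, and the median difference was 1.52, beside -0.01 over all genes tested. Over all genes tested 3.24% rose and 3.77% fell, and these shares stand beside the counts of every list below. Small counts in a list can lie near these shares. The lists were chosen with earlier results of these data known, so their counts are descriptions. Besides TMPRSS15, ALPI (intestinal alkaline phosphatase) rose by 3.55 ± 0.71, from -3.00 to -0.02 (median -1.14) to 1.52 to 2.60 (median 2.15). The peptidases DPP4 and NAALADL1 rose by 1.75 and 1.53. MGAM, the maltase-glucoamylase, rose by 2.45 ± 0.61, and here 1 day 90 fetus, number 450, reached 1.12 and lay within the day 110 range of -1.78 to 1.63. LCT, the lactase that digests milk sugar, lay between 2.96 and 3.66 at day 90 (median 3.35) and between 4.67 and 5.64 at day 110 (median 5.24). Its difference of 1.86 ± 0.53 missed the call with an adjusted p of 0.014, although its ages did not overlap. SI, the sucrase-isomaltase, was not well above background in any day 90 fetus, and its difference of 2.01 was not called (adjusted p = 0.10). In the microvillus list, 2 of 9 rose, the myosin MYO1A by 1.83 ± 0.21 and the scaffold SLC9A3R1 by 1.18 ± 0.30, while VIL1 (0.35) and EZR (0.42), which bundle and anchor actin, were not called.

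Genes for lipid uptake rose in part. In the list for fatty acid, sterol and bile acid uptake 3 of 10 rose, beside 3.24% of all genes tested. FABP1, a fatty acid binding protein, went from 4.36 to 5.19 (median 4.998) to 6.17 to 8.77 (median 7.56), a rise of 2.62 ± 0.35, and all 4 of its probes were called. The fatty acid transporter and activating enzyme SLC27A2 rose by 3.56 ± 0.72 and the bile acid exporter subunit SLC51B by 1.18 ± 0.26, but FABP2 was not called (0.80, adjusted p = 0.52). Of 11 genes for apolipoproteins and chylomicrons, APOC3 rose and PLIN2, which coats lipid droplets, fell by 0.79. APOC3, an inhibitor of lipoprotein lipase, ran from 0.25 to 2.99 (median 1.31) and from 5.04 to 7.34 (median 6.53), a rise of 4.88 ± 0.80 (adjusted p = 1.6e-05). APOA1 and APOA4, structural apolipoproteins, differed by 0.59 and 1.51 without a call (adjusted p = 0.24 and 0.14).

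Of 8 genes for hexose transport and fructose metabolism 2 rose, of 10 genes of gluconeogenesis 5 and of 14 genes of glycolysis and lactate 1. None of them fell, and over all genes tested 3.24% rose and 3.77% fell. SLC5A1, the sodium-glucose cotransporter, rose by 2.02 ± 0.42 (4.36 to 5.27 at day 90, median 4.79, and 6.28 to 7.17 at day 110, median 6.85), and KHK, the ketohexokinase that phosphorylates fructose, by 2.01 ± 0.27. SLC2A2, the basolateral glucose carrier, was not called (0.93). In gluconeogenesis the rises were G6PC, PCK1 by 1.76 ± 0.39, GOT1 by 1.73 ± 0.40, the coactivator PPARGC1A by 1.16 ± 0.20 and FBP2 by 0.78. PCK1, the phosphoenolpyruvate carboxykinase, went from 0.73 to 2.26 (median 1.41) to 2.26 to 4.31 (median 3.32), with ages that met at 2.26. All 6 PCK1 probes were called. GPT, an alanine transaminase, missed the call by its brightest probe (1.01, adjusted p = 0.018) and passed it by another of its 3 probes. In glycolysis and lactate it was LDHA, a lactate dehydrogenase subunit (1.23 ± 0.24, adjusted p = 0.00028), and the hexokinases HK1 and HK2 were at -0.49 and -0.10.

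Hormone signalling moved on both sides. Of 14 genes for glucocorticoid and thyroid hormone action, 3 rose and 2 fell, beside 3.24% and 3.77% of all genes tested. FKBP5, a chaperone that glucocorticoids induce, rose by 1.90 ± 0.33 (-3.07 to -2.36, median -2.69, against -1.69 to 0.12, median -0.80), and KLF9, a transcription factor that responds to both hormones, rose by 1.22 ± 0.26 with 10 of 13 probes called. Of the receptors, THRB fell by 1.03 (SE 0.20) from 3.69 to 4.71 (median 3.95) to 2.58 to 3.41 (median 2.94), and THRA fell by 0.78 (SE 0.20). The glucocorticoid receptor NR3C1 (0.26, adjusted p = 0.25) and the mineralocorticoid receptor NR3C2 (-0.61) were not called. With the median over the probes of a gene in place of its brightest probe, 3 genes of the list rose and none fell. VDR, the vitamin D receptor, was the 1 called gene of 11 intestinal transcription factors, beside 7.02% of all genes tested. It rose by 2.49 ± 0.31 (-0.40 to 0.996, median 0.59, against 1.99 to 3.96, median 2.98).

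In the IGF list of 13 genes, IGF1 rose and the binding protein IGFBP2 fell by 1.42 (SE 0.35). Fetus 688 was at -3.34 for IGFBP2 while the other 5 day 110 fetuses were at 1.06 or higher, and without it the difference was -0.62 and not called (adjusted p = 0.017). No gene of the list was called when the median over probes was used. IGF2, a fetal growth factor (-0.41), and IGF1R, the receptor (-0.33, adjusted p = 0.45), were not called.

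**Figure D2:**
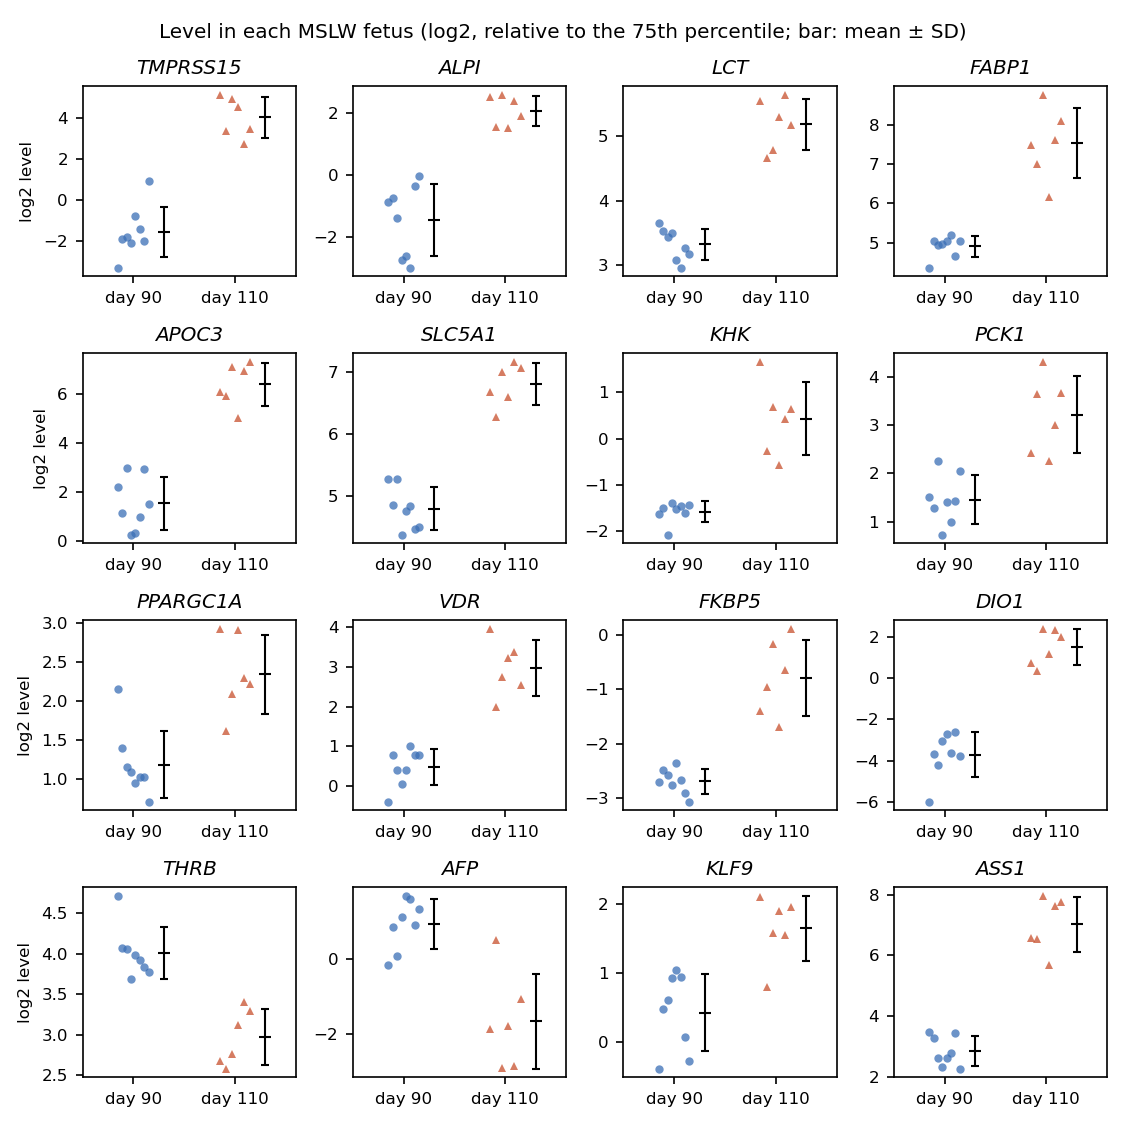
Level in each MSLW fetus of 16 genes of digestion, lipid, sugar and nitrogen metabolism, hormone signalling and fetal proteins, with day 90 as circles (8 fetuses) and day 110 as triangles (6). The vertical axes give the log2 level relative to the 75th percentile, with a scale of its own in each panel, and bars give mean ± SD. TMPRSS15, FABP1 and VDR have no overlap of both ages, while PPARGC1A, PCK1, AFP and KLF9 do overlap.

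Mucosal defence had 4 rises among 10 tested genes and a median of 1.46, while 3.24% of all genes tested rose. Besides REG3G, PIGR, the receptor that carries polymeric immunoglobulins across the epithelium, rose by its brighter probe (adjusted p = 1.3e-05). That probe was well above background in 1 of 8 day 90 fetuses and in all 6 at day 110, so that the fitted difference of 4.95 ± 0.81 rests largely on signals not above background at day 90, and the other PIGR probe was not called (2.32, adjusted p = 0.082). The scavenger protein DMBT1 rose by 2.24 ± 0.42 with all 4 probes called, and CLCA1, a secreted goblet cell protein, by 1.52 ± 0.30 with 6 of 7 probes. MUC2 (0.43) and SPDEF (1.40), which make and regulate mucus in goblet cells, were not called. OLFM4, a crypt cell glycoprotein, rose by 3.67 ± 0.54 (4 of 8 day 90 fetuses well above background) as the 1 called gene of 8 in the crypt and Wnt list, where LGR5, the stem cell receptor, was at 0.01. Among 17 interferon-stimulated genes OAS1 rose by 2.31 and GBP5 by 1.71, and ISG15 (1.51, adjusted p = 0.057) and MX1 (1.17) were not called. GBP1 and GBP7 differed by 0.51 and 0.83, also without a call. In the complement list 2 of 17 rose, C7 by 1.68 with 4 of 4 probes and the regulator CD46 by 1.39, against 0.26 for C1QA and 0.07 for C1QB. None of 15 genes of antigen presentation was called (SLA-1 0.45, SLA-2 0.63). Of 15 chemokines CXCL12 fell by 1.01, while CCL2 (-0.18) and CCL4 (-0.04) were not called by their brightest probes. Another CCL4 probe was called as fallen (-0.97, adjusted p = 0.0027). With the median over the probes of a gene, 1 chemokine rose and 1 fell. Over all genes tested, 7.02% were called by their brightest probe.

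Ion, water and mineral transport changed in both directions. Of 20 genes, 3 rose and 3 fell, beside 3.24% and 3.77% of all genes tested. The sodium channel subunit SCNN1A rose by 1.91 ± 0.41, CA2, a cytosolic carbonic anhydrase, by 1.74 ± 0.39 and the sodium-proton exchanger SLC9A2 by 1.68 ± 0.33. CA4, AQP8 and GUCA2B (uroguanylin, by 1.46) fell. SLC26A3, the chloride-bicarbonate exchanger, differed by -2.76 with an adjusted p of 0.011, and the chloride channel CFTR by 0.20. In the list for calcium and iron, the calcium channel TRPV6 rose by 1.52 and the iron carrier SLC11A2 by 1.92, each by 1 of its 3 probes, while the calcium-binding S100G was not called (0.64). LRAT, which esterifies retinol for storage, rose by 3.01 ± 0.65 (5 of 8 day 90 fetuses well above background) opposite to RBP4 in a list of 9, and RBP2 (1.95, adjusted p = 0.031) was not called.

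Nitrogen metabolism had single large changes. ASS1, which makes argininosuccinate on the way to arginine, ran from 2.26 to 3.48 (median 2.70) and from 5.69 to 7.97 (median 7.10), a rise of 4.17 ± 0.62 (adjusted p = 2.5e-06) in both of its probes. PRODH, the proline dehydrogenase, rose by a fitted 2.22, with 1 of 8 day 90 fetuses well above background. OTC (-0.50) and ALDH18A1 (-0.18), which make citrulline and its precursor, were not called among these 9 genes. In fatty acid oxidation 2 of 18 rose, PDK4, which restrains glucose oxidation, by 1.94 with 11 of 11 probes and EHHADH by 1.42, against -0.36 for CPT1A and 0.02 for CPT2. No gene was called in the lists for amino acid and peptide carriers (11 tested, SLC15A1 1.01, SLC6A19 0.34), gut hormones (10, CHGA -0.06, CHGB 0.30), endocytosis and IgG uptake (9, CUBN -0.33, AMN -0.21), sterol synthesis (13, SQLE -0.33), oxidative phosphorylation (15, NDUFS1 0.22), junctions (14, CLDN2 0.65, CLDN3 0.61), heat shock (12, HSPA8 0.63, HSP70.2 0.68) or BMP, hedgehog and TGF-beta signals (15, BMP2 0.47, BMP4 -0.12). Of 16 xenobiotic and steroid enzymes, CYP17A1 rose, the glutathione transferase GSTA4 fell by 0.79, and CYP3A4 (1.33) and GSTA1 (-0.15) were not called. Over all genes tested, 7.02% were called. These counts are by the brightest probe. By the median over the probes of a gene, 1 heat shock gene rose, and of the xenobiotic and steroid enzymes 2 rose and 2 fell.

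Among genes of proliferation, matrix, nerve and muscle few were called, and those called fell. Of 19 cell cycle genes, 18 had a negative difference, beside 51.6% of all genes tested. In this list 2 were called, beside 7.02% of all genes tested. These were the replication helicase subunit MCM2 (a fall by 0.84) and the spindle protein NUSAP1 (a fall by 0.59). MKI67 (-0.57) and TOP2A (-0.44) were not called by their brightest probes. Of 17 collagen and matrix genes, COL1A2, POSTN and DCN fell by 0.998, 0.77 and 0.72, and COL1A1 was at -1.32 without a call (adjusted p = 0.060). Of the markers, TUBB3 and UCHL1 of neurons fell by 0.995 and 0.87 among 7 tested, ACTA2 of smooth muscle fell by 0.58 among 9, and ELAVL4 (-0.98) and ACTG2 (-0.38) were not called. With the median over the probes of a gene, 1 matrix gene, 1 neuron gene and 2 smooth muscle genes were called as fallen in place of 3, 2 and 1. The mean level of the neuron and glia list was 0.41 to 0.91 over day 90 fetuses and -0.70 to 0.38 over day 110 fetuses, that of smooth muscle 4.94 to 5.73 and 4.68 to 5.09, and that of the 8 epithelial markers 3.38 to 3.97 and 3.64 to 4.32. Of the epithelial markers KRT20 rose by 1.37, and EPCAM (0.44) and CDH1 (0.45) were not called. These shifts moved with the rises of the enterocyte genes, and their part in them was not tested.

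Of 9 fetal plasma proteins 1 rose and 1 fell, beside 3.24% and 3.77% of all genes tested. AFP, the fetal plasma protein, ran from -0.15 to 1.70 (median 1.02) and from -2.88 to 0.52 (median -1.81) and fell by 2.58 (SE 0.60) in all 3 probes, while ALB differed by -0.35. HPX, which binds haem, rose by 3.19 ± 0.60. None of 6 erythroid markers was called, with HBB at -0.94 and HBA1 at -0.92 (adjusted p = 0.33 and 0.082), nor any of 7 macrophage markers (CD163 0.13, CSF1R -0.04) or of 8 endothelial markers (PECAM1 -0.13, CDH5 -0.55). CD2 rose by 1.19 by 1 of its 3 probes among 10 lymphocyte markers, where CD3D (0.58) and CD3E (0.65) were not called. CD5L thus rose while none of the macrophage markers tested passed the test. Of the 3 mesothelial and pancreas genes tested, WT1 fell.

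**Figure D3:**
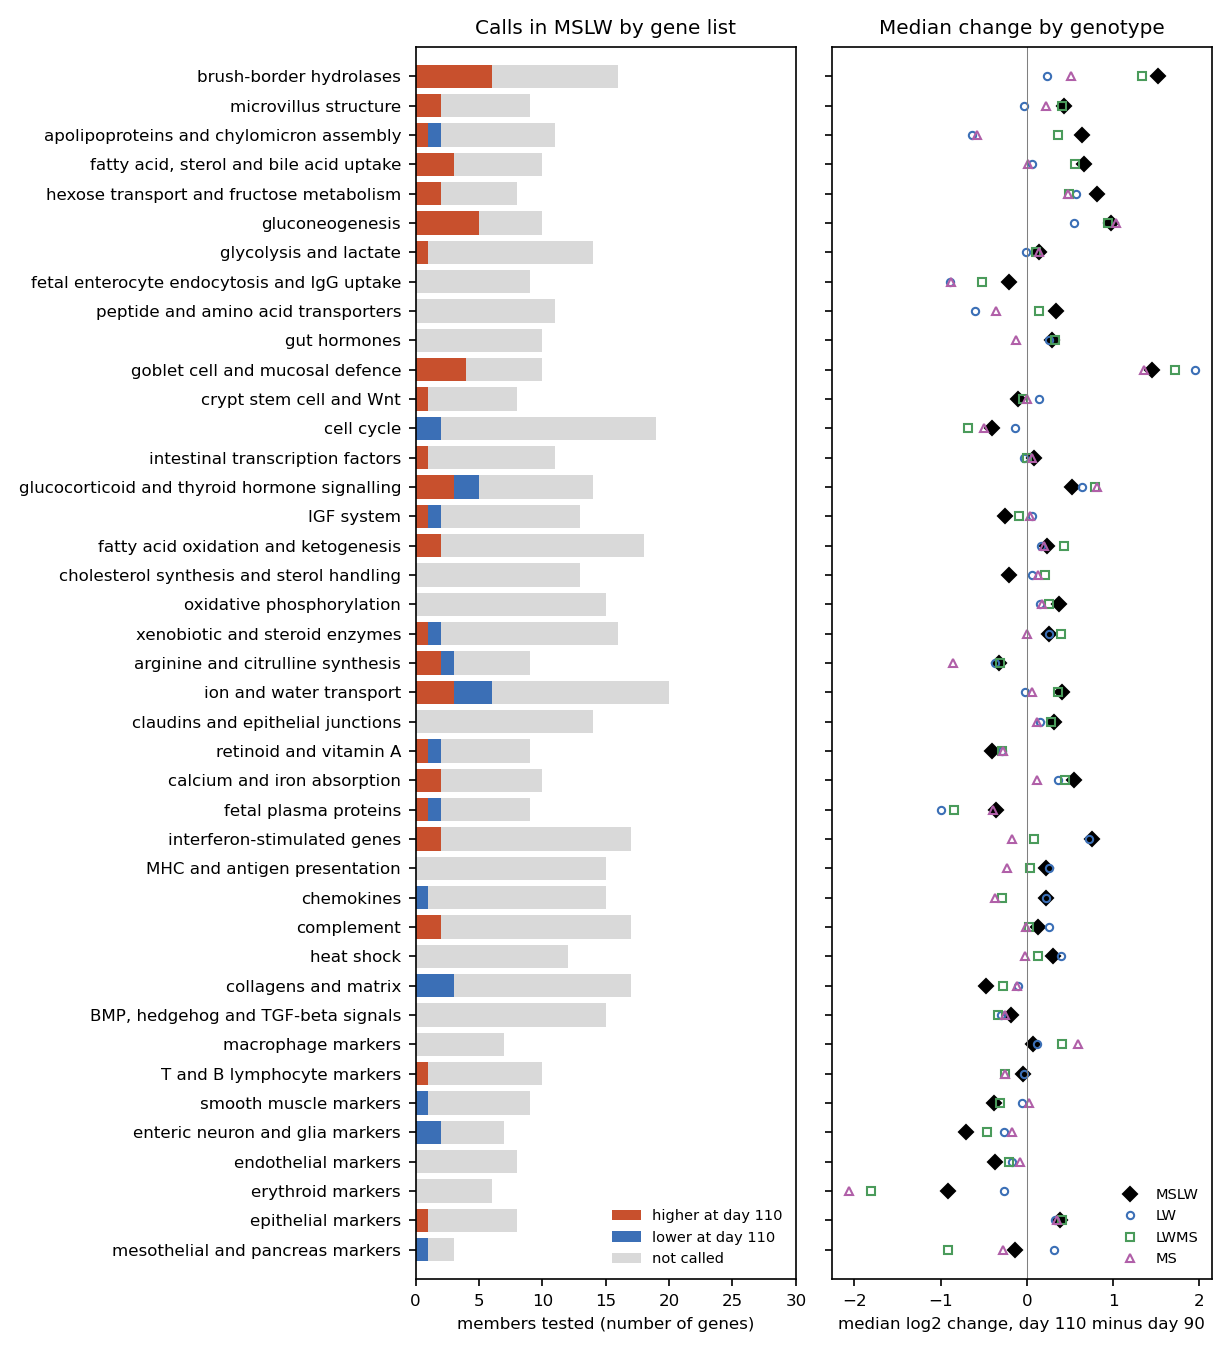
Gene lists in MSLW fetuses. Left, number of members tested that were higher at day 110, lower or not called. Right, median log2 change of the same members from day 90 to day 110 in MSLW (filled diamonds) and in LW, LWMS and MS (open symbols). Brush-border hydrolases have 6 of 16 members higher and the largest MSLW median, 1.52, ahead of mucosal defence at 1.46. Of all genes tested, 3.24% were higher and 3.77% lower.

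Genes that the study names for late gestation were followed as well. The LIM protein FHL3 fell by 1.03 (SE 0.11), with 3.55 to 3.93 (median 3.84) at day 90, 2.44 to 2.94 (median 2.81) at day 110 and 4 of 4 probes called. The sulfotransferase GAL3ST1 rose by 2.44 ± 0.33 and the syntenin relative SDCBP2 by 3.11 ± 0.33, the latter from -3.99 to -2.69 (median -3.32) to -0.94 to 0.34 (median -0.16). CIRBP, an RNA-binding protein induced by cold, fell by 0.80 (SE 0.20). MTOR (0.05), SMS (0.35), TGFB2 (-0.34) and MAP2K1 (0.57, adjusted p = 0.012) were not called by their brightest probes, and PF4 was not tested.

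Most of the change seen in MSLW fetuses was shared in direction by the other genotypes, whose fetuses are other animals. LW and MSLW fetuses both came from LW sows and can be litter mates. Agreement with LW is therefore no check in separate litters. Of the 2193 probes called in MSLW, 99.0% had the same sign in LW, 99.1% in LWMS and 94.5% in MS, where 67.6%, 73.2% and 62.2% of all probes tested did. The share of them also called in the same direction was 41.2% in LW (904 probes), 67.9% in LWMS (1490) and 27.1% in MS (595), against background rates of 4.77%, 9.88% and 3.17% called in these genotypes. A total of 454 probes was called in all 4 genotypes in the same direction and 591 in MSLW but in none of the other three, which does not show that those changes differ. Over all 2193 probes called in MSLW the median size was 1.03 in MSLW, where they were selected. It was 0.62, 0.86 and 0.57 in LW, LWMS and MS along the MSLW sign.

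Of the 10 largest rises, which were chosen by their MSLW values, 7 had a day 90 MSLW fetus well above background. For 5 of these 7 the fitted change was larger in MSLW than in each other genotype, but none of them passed the test of the difference. CD5L rose by 7.49 in MSLW and by 3.01, 5.50 and 3.75 in LW, LWMS and MS, and the MSLW minus LW difference was 4.49 ± 1.01 with an adjusted p of 0.26. TMPRSS15 rose by 5.58, by 5.34 in LWMS and by 4.33 in MS, and differed by 2.12 in LW without a call (adjusted p = 0.056). DIO1 rose by 5.22, by 5.75 in LW and by 4.54 in LWMS, and by 1.31 without a call in MS, with a MSLW minus MS difference of 3.90 ± 1.01 (adjusted p = 0.13), and was well above background in 3 of 9 LW fetuses at day 90. THRB, CA4 and MAT1A fell in each genotype, and the change of THRB was -1.03, -1.02, -0.92 and -1.04 in MSLW, LW, LWMS and MS. In the same order it was -4.83, -4.71, -5.26 and -3.37 for CA4 and -2.43, -1.54, -2.37 and -2.43 for MAT1A.

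**Figure D4:**
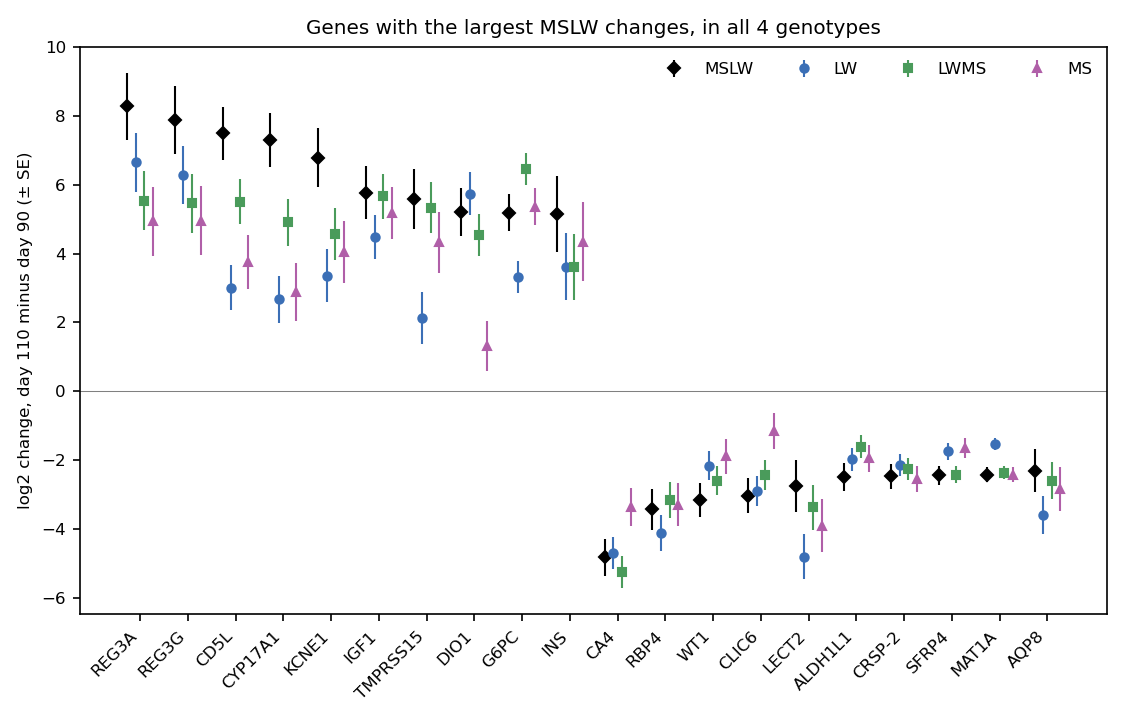
Change from day 90 to day 110 (log2, day 110 minus day 90) of the 20 genes with the largest MSLW rises and falls, in the 4 genotypes. Symbols give the fitted change and bars its SE, with 14 MSLW, 18 LW, 18 LWMS and 13 MS fetuses. The genes were chosen by their MSLW values, and none of the differences between MSLW and another genotype was called for them. For CYP17A1, KCNE1 and INS no MSLW fetus was well above background at day 90, so their plotted changes are no measured sizes.

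The test of the difference itself called few probes. No probe passed the limma test (adjusted p up to 0.05) for a different change in MSLW than in LW, with 2278 of 40515 (5.62%) at an unadjusted p under 0.05. Array weights gave 22 such probes and the authors' processed values 3. Between MSLW and LWMS, the reciprocal crosses, 2 probes were called (0.00494%), and between MSLW and MS 25 (0.0617%), of which 23 had the lower change in MSLW. With slide as a block these numbers were 0, 2 and 13.

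SRPX2, a secreted sushi-repeat protein, was the first of the 2 probes between the reciprocal crosses. Its probe lay between 0.16 and 0.83 in MSLW at day 90 (median 0.63) and between -0.67 and 0.52 at day 110 (median -0.08). In LWMS it went the other way, from -1.84 to -1.02 (median -1.35) to -1.39 to 0.88 (median -0.38). The change was -0.58 in MSLW (adjusted p = 0.062) and 1.13 in LWMS, a difference of -1.71 ± 0.28 (adjusted p = 0.0039). At day 90 the fetuses of LW sows, LW at 0.08 to 0.85 and MSLW, all lay above those of MS sows, LWMS and MS (-1.68 to -0.97). Day 90 levels are part of the difference that named the probe, so this split is a description. The study itself shows SRPX2 as its example of a maternal effect at day 90. It places the gene on the X chromosome, of maternal origin in males, and lists this probe with opposite changes in LW and MS. The second SRPX2 probe fell by 1.42 in MSLW and was at -0.21 in LWMS, with a difference of -1.22 ± 0.26 that was not called (adjusted p = 0.12). By that probe the day 90 split was narrow. The lowest fetuses were at -0.317 in MSLW and -0.298 in LW, and the highest at -0.375 in LWMS and -0.319 in MS. BAG6, a chaperone of membrane proteins, was the other gene, through a dim probe that ran from -5.39 to -3.70 (median -4.13) at day 90 and from -4.25 to -1.86 (median -3.23) at day 110 in MSLW. It rose by 1.28 in MSLW and was at -1.18 in LWMS and -1.16 in MS, and the differences were 2.46 ± 0.42 and 2.44 ± 0.45 (adjusted p = 0.0039 and 0.010). The other 3 BAG6 probes, all brighter, differed by -0.39 to 0.14 between ages in MSLW and none was called. The dim probe was well above background in 6 of 8 and 5 of 6 MSLW fetuses, and in 4 of 7 MS fetuses at day 110.

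Between MSLW and MS, several of the probes called rose in MS and not in MSLW. A MAP2K1 probe, for the kinase MEK1, ran from -3.38 to -2.50 (median -3.01) and from -3.67 to -3.07 (median -3.26) in MSLW, and from -4.14 to -3.41 (median -4.04) and from -3.22 to -2.17 (median -2.91) in MS. The difference of the changes was -1.34 ± 0.23 (adjusted p = 0.0087), but the brightest MAP2K1 probe gave 0.09 ± 0.23. For CD163, the haemoglobin scavenger receptor of macrophages, 1 probe had a change of -0.42 in MSLW and 1.85 in MS, and a difference of -2.27 ± 0.42 (adjusted p = 0.011). In MS all 7 day 110 fetuses (-1.78 to -1.26) lay above all 6 day 90 fetuses (-3.92 to -2.89), while in MSLW both ages overlapped (-3.32 to -2.17 and -4.00 to -2.56). Its brightest probe gave -1.62 ± 0.38 (adjusted p = 0.072). IGF1R had a difference of -1.34 ± 0.29 by a second probe (adjusted p = 0.047) and of -0.55 ± 0.37 by its brightest, and in MS that second probe ran from -2.94 to -1.69 at day 90.

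LUC7L2, a splicing factor, fell by 0.86 in MSLW and was at 0.20 in MS, a difference of -1.06 ± 0.19 (adjusted p = 0.010) by the dimmer of its 2 probes. By the brighter probe the MSLW change was -0.04 and the difference -0.025 ± 0.17, and neither was called. GLRX, a glutaredoxin, was one of 2 probes with the higher change in MSLW. It rose from between -3.54 and -2.49 (median -2.95) to between -1.65 and -0.30 (median -1.05) in MSLW and was at -2.41 and -2.10 as medians in MS, a difference of 1.72 ± 0.35 (adjusted p = 0.031) by the dimmest of its 4 probes, while the brightest gave 1.01 ± 0.52 (adjusted p = 0.49). ZMYND8 (-0.79 ± 0.15), ESYT2 (-0.79 ± 0.15), PJA2 (-1.51 ± 0.30), LGI1 (-1.11 ± 0.23) and FTO (-1.12 ± 0.23) were the others of the first 10 genes by adjusted p, with values of 0.010 to 0.031, and further probes among the 25 had an equal or larger adjusted p or no gene name. The brightest PJA2 probe gave -0.31 ± 0.31 and was not called, and both LGI1 probes were. For FTO 1 of 3 probes, the brightest, was called, and the 3 ran from -1.12 to 0.02.

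**Figure D5:**
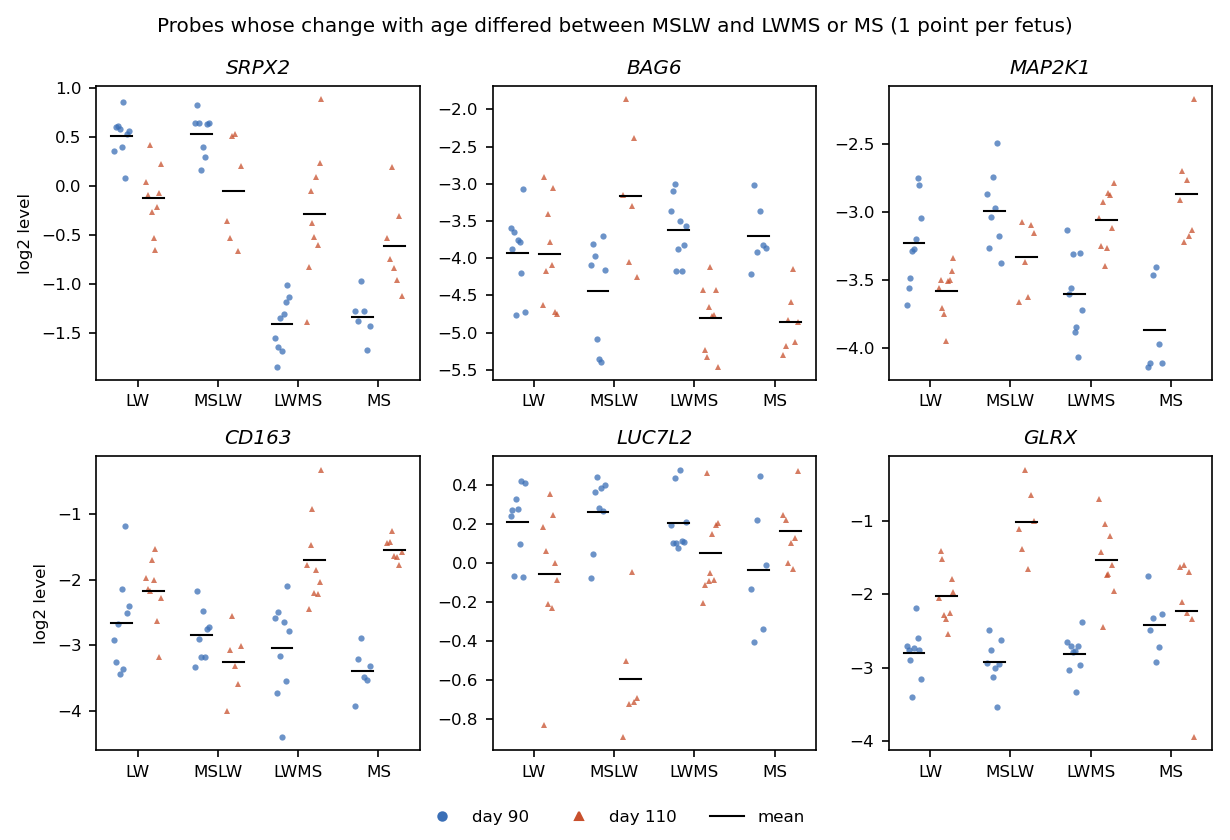
Level of 6 probes whose change with age was called as different between MSLW and LWMS (SRPX2, BAG6) or between MSLW and MS (BAG6, MAP2K1, CD163, LUC7L2, GLRX). The vertical axes give the log2 level relative to the 75th percentile, circles are day 90 fetuses, triangles day 110 fetuses and black lines means, in the 4 genotypes. SRPX2 at day 90 is high in LW and MSLW and low in LWMS and MS.

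CYP11A1, the side-chain cleavage enzyme that starts steroid synthesis, depended on the probe. Its brightest probe was at -4.68 to -2.004 (median -4.06) and -4.32 to -3.39 (median -4.20) and was not called (-0.46, adjusted p = 0.43), but 4 of its 6 probes were called as fallen. By 1 of these 4, shown after its values were seen, day 90 MSLW fetuses spread from -6.24 to -0.26 (median -4.85), and 5 of 8 were well above background. At day 110 none of 6 was (-8.34 to -6.39, median -7.23). With day 110 set to each array's dimmest signal that still passed the background test, the day 90 mean was 3.18-fold higher. That mean includes day 90 fetuses not above background, so 3.18-fold is no strict lower bound. With that probe no LW fetus of either age was well above background, while all 9 LWMS (-3.08 to 0.52, median -1.31) and all 6 MS fetuses (-2.66 to 0.90, median 0.55) were at day 90, and none of theirs at day 110. The MSLW day 90 fetuses thus spanned from within the LW range of -7.48 to -5.44 to within that of MS. No size is given for the difference of this change between genotypes, and none was called.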

How the data were processed

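RNA of the middle jejunum of 63 male fetuses was hybridised to 1-colour Agilent arrays, 1 fetus per array, on 8 slides read on 1 scan day. The authors deposited the scanner output, with linear intensities from Agilent Feature Extraction 10.10.1.1, and a table of log2 values for 39446 probes. The deposited log2 values were judged from the scanner files to be quantile-normalised median spot intensities, which was not tested. The study names quality control and a normalisation for them, but not the criteria. They served as an alternative.

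Levels were computed as log2 of the processed signal minus the array's 75th percentile. Of 61625 spots, 1319 control spots were left out, outlier spots were set to missing (2775 tested probes lack a value on some array) and 0 spots were saturated. Testing required a signal well above background in 75% or more of 1 group's arrays, which left 40515 of 60305 probes. The number of arrays limits the precision. The 8 group means were fitted in limma 3.58.1 (R 4.3.3) over all 63 arrays, so that the groups share 1 estimate of the spread, with two-sided tests adjusted by Benjamini and Hochberg. The calling threshold for age was an adjusted p up to 0.01 with a log2 difference of 0.5 or more, and for differences between changes an adjusted p up to 0.05. The script was tested on simulated data. The study fitted the sow as a random effect, which could not be done from the labels.

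A gene stands for its brightest tested probe, except where a called difference between genotypes named another probe. Names come from RefSeq accessions, the array files and gene tables of the study, and conflicting names were left out. Named were the 10 largest rises and falls without overlap of both ages, up to 4 called genes per direction and the first 2 members of each of 41 lists, up to 10 genes per difference and genes the study names. DPP4, NAALADL1, FBP2 and other list members given in passing were added, and a few genes of the rule are not reported here. The members and lists were chosen with earlier results of these data known. Alternatives were the authors' values, normexp (offset 50), quantile normalisation, median centring, other filters, slide as a block, array weights, fewer samples and leaving out each fetus.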

Additional observations from a re-analysis of the deposited data

Results flagged for a closer look

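Single fetuses stood apart from their group in 34 cases, by a gap to the nearest fetus beyond the 95% limit for the size of the group. The named probes, 84 called and 78 not called, were each looked at in both age groups, and FHL3 gave a case in each. Chance alone gives about 1 in 20 groups such a fetus, so some of the 34 cases arise at that rate alone. At day 90, fetus 450 was such a fetus in 14 probes. It was lowest for BMP4 (0.91), C1QA (0.26), C1QB (0.40), CCL2 (-0.51), CXCL12 (2.53), DIO1 (-6.01), GBP1 (-0.70), LGR5 (-3.59), PLIN2 (-0.93), SLC27A2 (-5.73), TRPV6 (0.59) and ZMYND8 (0.0074), and highest for MGAM (1.12) and THRB (4.71). Fetus 498 was at 3.13 for ISG15, -2.08 for KHK and 3.30 for THRA, fetus 899 at 3.55 for FHL3 and 0.14 for SLC2A2, and fetus 900 at -2.21 for ALB. At day 110, fetus 851 was at -7.25 for CYP3A4, -0.55 for ESYT2, 2.44 for FHL3, -0.87 for GBP7 and 4.27 for HBA1. Fetus 476 was at -0.24 for CDH5, 6.63 for CHGA and 0.82 for GSTA4, fetus 578 at 0.98 for CHGB, 4.30 for CLCA1 and -5.84 for PRODH, fetus 688 at -3.34 for IGFBP2 and 2.57 for REG3G, and fetus 560 at -7.99 for WT1.

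The change with age differed between genotypes by the limma test in 13 named cases. The MSLW minus LWMS difference was -1.71 for SRPX2 and 2.46 for BAG6. The MSLW minus MS difference was 2.44 for BAG6, -1.34 for MAP2K1, -1.06 for LUC7L2, -0.79 for ZMYND8, -2.27 for CD163, -0.79 for ESYT2, -1.51 for PJA2, -1.11 for LGI1, -1.12 for FTO, 1.72 for GLRX and -1.34 for a second IGF1R probe. For BAG6, MAP2K1, CD163, LUC7L2, PJA2, GLRX and IGF1R the brightest probe was not called, and for FTO only the brightest of 3 probes was.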

How the results depend on the processing

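The 2193 probes called for age in MSLW became 1095 with median centring, 3609 with array weights and 14 on the 4 slides with both ages, where 8 fetuses were left. Leaving out 1 fetus gave 1450 (without fetus 476 of day 110) to 2430 (without fetus 578), and the other settings gave 1789 to 2458. For the MSLW minus LW difference, the authors' values gave 3 probes, normexp 1 and array weights 22, in place of 0. For MSLW minus LWMS, quantile normalisation gave 5, median centring 4 and array weights 9, in place of 2. For MSLW minus MS, normexp gave 4, no filter 9, slide as a block 13 and the fit without LW fetuses 484 and 469 gave 41, in place of 25. The difference in the share of probes well above background ran from -0.074 (without fetus 851) to 4.70 percentage points when 1 fetus was left out.

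None of the 84 named probes called reversed in any setting. The call was lost by 78 on the 4 slides, by 23 with median centring, by at most 11 in each other setting, and by 4 to 18 (without fetus 688) when 1 fetus was left out. Reversals touched only genes that were not called. They were CHGA 0.061, MKI67 0.36, CPT2 -0.057, ALB 0.40, CCL2 0.23, CSF1R 0.39 and MTOR -0.083 on the 4 slides, CHGA 0.11, CPT2 -0.0068, CCL4 0.057, C1QB -0.032 and CD163 -0.041 with slide as a block, and LGR5 -0.30, C1QB -0.20 and CD163 -0.11 with array weights. Median centring gave LGR5 -0.055, CPT2 -0.043, C1QB -0.0033 and MTOR -0.019, quantile normalisation CPT2 -0.045, the authors' values MKI67 0.27 and CPT2 -0.00032, and normexp CUBN 0.023 and CSF1R 0.019. With 1 fetus left out, the ranges were -0.77 to 0.070 for CUBN, -0.41 to 0.012 for AMN, -0.30 to 0.061 for CHGA, -0.28 to 0.15 for LGR5, -0.017 to 0.086 for CPT2, -0.59 to 0.013 for ALB, -0.26 to 0.068 for CCL4, -0.21 to 0.26 for C1QB, -0.24 to 0.063 for CSF1R and -0.0048 to 0.15 for MTOR. The cause was not tested. No paired analysis was possible because the fetus numbers are not shared between groups, and the slides that held both ages entered as a block (above). Dim probes have only bounds at the age where they are not above background.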
